A study of Mus musculus with 11 samples.

Results

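Hepatocytes make most of the plasma proteins whose blood levels change in inflammation. Cytokines, with interleukin-6 and interleukin-1 the best studied, raise transcription of the positive acute phase genes through STAT3, C/EBP factors and NF-κB, while genes such as *Alb* are lowered in the same response. Fibrinogen, the clotting protein, is assembled in the endoplasmic reticulum from pairs of 3 chains, each encoded by its own gene, and its secretion runs through the machinery that the unfolded protein response serves. The data cover 10 such genes of the 54165 in the count files that GENCODE M21 names, chosen by name: the fibrinogen chains *Fga*, *Fgb* and *Fgg*, the serum amyloid A genes *Saa1*, *Saa2* and *Saa4*, orosomucoid 1 (*Orm1*), haptoglobin (*Hp*), hemopexin (*Hpx*) and serum amyloid P (*Apcs*). All 10 passed the filter on low counts and were tested among 13303 genes, with between 211 and 214148 counts in any library.

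RNA-Seq was done on hepatocytes isolated from adult male C57BL/6 mice, either *Xbp1* LKO mice, in which a Cre driven by the albumin promoter removes an exon of *Xbp1* in hepatocytes, or *Xbp1* fl/fl controls, which carry the floxed alleles. Mice of both genotypes ate standard chow or, for up to 6 weeks, were given the HFS diet (high in fat and sugar), a Western diet with fructose and glucose to drink. There were 3 libraries from chow-fed *Xbp1* fl/fl mice, 2 analysed here from chow-fed *Xbp1* LKO mice, and 3 of each genotype on HFS. Each HFS library came from hepatocytes pooled from 2 mice. Total counts ranged from 19191032 to 23888401 per library.

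*Xbp1*, the transcription factor deleted in the *Xbp1* LKO mice, was counted at 194, 200 and 221 CPM (counts scaled to the size of the library with TMM factors) in *Xbp1* fl/fl mice on chow and at 95.7 and 128 CPM in *Xbp1* LKO mice on chow. On HFS the *Xbp1* fl/fl libraries held 301, 295 and 242 CPM and the *Xbp1* LKO libraries 117, 97.3 and 135 CPM. The genotypes did not overlap on either diet, with a log2 fold change of -0.87 (SE 0.18, adjusted p = 0.018) on chow and -1.26 (SE 0.16, adjusted p = 0.0025) on HFS by edgeR's quasi-likelihood test. These are counts over the whole gene, which also hold reads from the exons that are not deleted. With library totals in place of TMM the chow value of *Xbp1* was -0.54 (adjusted p = 0.063). Without chow-fed *Xbp1* LKO replicate 1 it was -0.68 (adjusted p = 0.092), and without replicate 2 it was -1.10 (adjusted p = 0.059). The chow call of *Xbp1* was lost in 5 of 19 alternatives in all, also with only the groups compared and with the replicate block.

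The libraries carried the markers of hepatocytes. A list of 10 hepatocyte genes summed to between 39670 and 170700 CPM, led by *Alb*, and markers of other liver cells were low in comparison. The 12 macrophage genes summed to between 20.5 and 96.4 CPM, led by *Cd5l*, the 8 endothelial genes to between 26.4 and 139.5 CPM, led by *Stab2*, the 7 stellate cell genes to between 8.53 and 57.9 CPM, led by *Dcn*, the 5 cholangiocyte genes to between 3.38 and 16.1 CPM, led by *Spp1*, and the 7 neutrophil genes to between 0.149 and 4.91 CPM, led by *S100a9*. Fewer cells of a type and less RNA per cell cannot be told apart in such bulk libraries.

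Per kilobase of exon, the scavengers of hemoglobin and heme stood at the head of the 10 genes. The median over the 11 libraries was 2958 CPM per kilobase for *Hpx*, which binds free heme, and 2008 for *Hp*, which binds free hemoglobin. The fibrinogen chains followed at 1641 for *Fga*, 1576 for *Fgg* and 1187 for *Fgb*. *Orm1*, a lipocalin of plasma, stood at 746 CPM per kilobase, *Saa4*, the constitutive serum amyloid A gene, at 321.5, and *Apcs*, the pentraxin of amyloid deposits, at 98.6. *Saa1* and *Saa2*, the inducible apolipoproteins of high density lipoprotein, came last by this median at 46.9 and 18.0. By group means *Saa1* stood above *Apcs* in all 4 groups and above *Saa4* in 3 of 4, *Saa2* stood above *Apcs* in 3 of 4, and *Fgg* stood above *Fga* in HFS-fed *Xbp1* LKO hepatocytes. The ranges of neighbours in this order overlapped widely. *Hpx* ran from 1920 to 6704 CPM per kilobase and *Hp* from 1451 to 6214, and *Saa1* ran from 12 to 1384 and *Saa2* from 4.01 to 1099.

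*Saa1* and *Saa2* differed widely between libraries of the same group. In chow-fed *Xbp1* fl/fl hepatocytes *Saa1* was at 2243, 377 and 29.8 CPM, and in chow-fed *Xbp1* LKO hepatocytes at 31.0 and 1873 CPM. On HFS it was at 31.6, 3430 and 44.8 CPM in *Xbp1* fl/fl and at 60.9, 116 and 1522 CPM in *Xbp1* LKO hepatocytes. The highest library of each group was between 1522 and 3430 CPM and the lowest between 29.8 and 60.9 CPM. *Saa2* followed it, at 1738, 174.5 and 10.5 CPM, then 10.1 and 1319 CPM on chow, and at 11.4, 2768 and 12.7 CPM, then 23.1, 45.3 and 921 CPM on HFS, in the same order of libraries. The ratio of the highest to the lowest library within a group ran from 25.0 to 108.5 for *Saa1* and from 39.8 to 242 for *Saa2*.

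**Figure D1:**
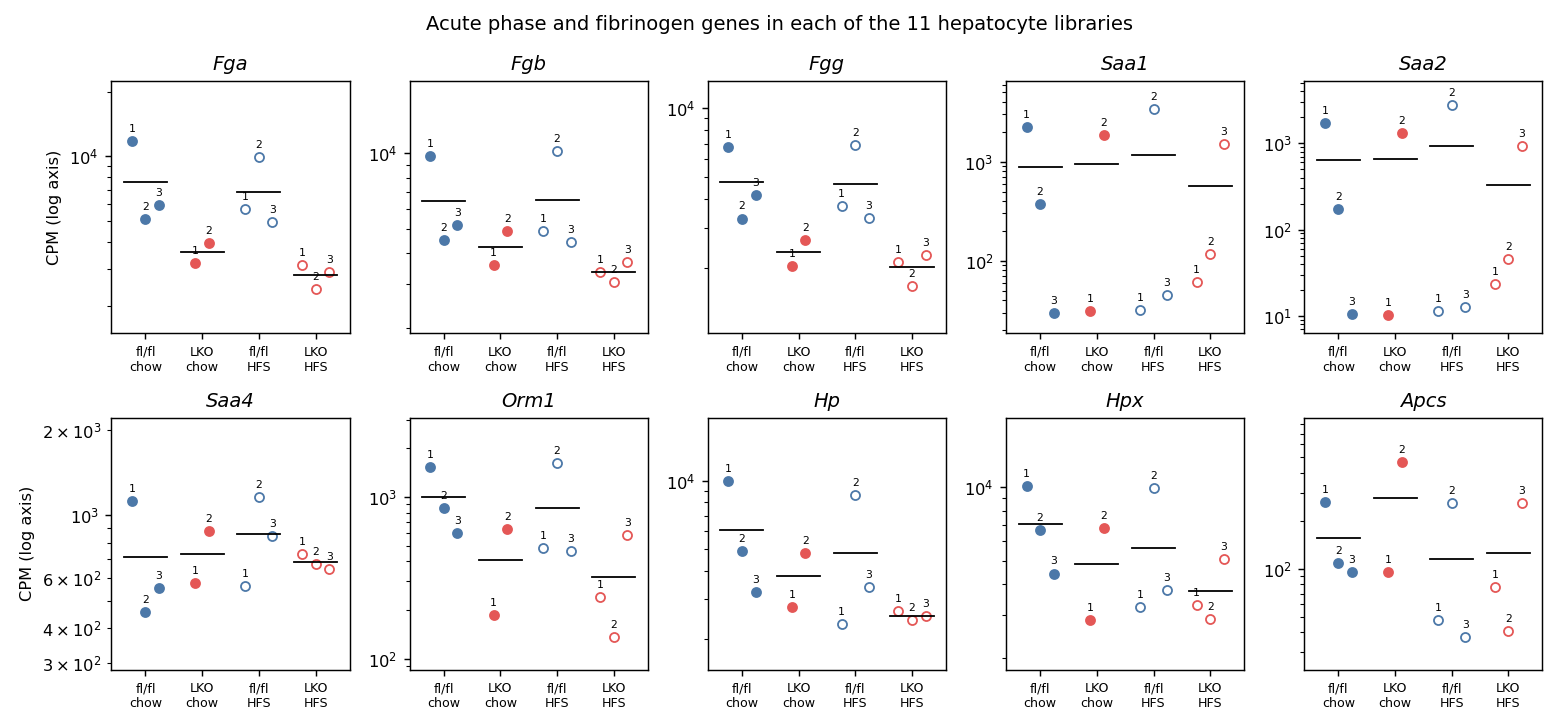
CPM of each of the 10 genes (log axis) in the 11 libraries, by genotype and diet (filled circles chow, open circles HFS, blue *Xbp1* fl/fl, red *Xbp1* LKO); small digits give the replicate and bars the group mean. *Saa1* spans 29.8 to 3430 CPM with a high library in each group, while *Fga* lies between 2406 and 3967 CPM in *Xbp1* LKO and between 4940 and 11810 CPM in *Xbp1* fl/fl hepatocytes.

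Within a group, all or most of the 10 genes peaked in the same library. Replicate 1 of the chow-fed *Xbp1* fl/fl group, replicate 2 of the chow-fed *Xbp1* LKO group and replicate 2 of the HFS-fed *Xbp1* fl/fl group were each the highest of their group for 10 of 10 genes. In the HFS-fed *Xbp1* LKO group, replicate 3 was highest for 7 genes and replicate 1 for *Fga*, *Saa4* and *Hp*. On chow the 10 genes took 5.13%, 2.32% and 2.22% of all counts of *Xbp1* fl/fl hepatocytes and 1.67% and 3.37% of those of *Xbp1* LKO hepatocytes. On HFS their share was 1.97%, 5.01% and 1.92% in *Xbp1* fl/fl and 1.65%, 1.51% and 2.29% in *Xbp1* LKO hepatocytes.

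The spread within groups differed greatly among the members. The pooled within-group SD of log2 CPM was 3.33 for *Saa1* and 3.94 for *Saa2*, against a median of 0.23 over the 13303 genes tested and 0.17 over the 1402 genes with a mean of at least 100 CPM. *Apcs* (1.32), *Orm1* (0.99), *Hp* (0.71) and *Hpx* (0.69) came next, and *Fga*, *Fgb*, *Fgg* and *Saa4* had the narrowest spread, between 0.44 and 0.49. Even *Fgg*, the least variable of the 10, varied more than 78% of the genes tested. The median absolute deviation of all genes from the group mean was 0.15 (chow-fed *Xbp1* fl/fl replicate 1), 0.12 (chow-fed *Xbp1* LKO replicate 2), 0.13 (HFS-fed *Xbp1* fl/fl replicate 2) and 0.13 (HFS-fed *Xbp1* LKO replicate 3) on the log2 scale, against a range of 0.11 to 0.19 over the 11 libraries. With 2 libraries in the chow-fed *Xbp1* LKO group, both deviate equally. By chi-square per degree of freedom over all genes, HFS-fed *Xbp1* fl/fl replicate 2 lay farther from its group (79.6 and 92.0) than the other libraries of that group from each other (27.9). HFS-fed *Xbp1* LKO replicate 3 also lay farther from its group (64.5 and 53.6) than the others of that group from each other (46.8), and the chow-fed *Xbp1* LKO libraries were the most distant pair within a group (101.6). Chow-fed *Xbp1* fl/fl replicate 1 did not stand apart in this way, at 54.3 from replicate 2 and 95.6 from replicate 3, which were 56.7 from each other, and replicate 3 had the largest median deviation of that group (0.19). The deviations of all genes from the group means correlated positively in each pair of these 4 libraries (r from 0.177 to 0.262). Pairs of the other libraries, taken from different groups, ran from r = -0.187 to r = 0.333. A value of that size was thus not particular to the 4 libraries.

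Many of 24 other positive acute phase genes peaked in the libraries highest for *Saa1*. There were 19 of 24 in chow-fed *Xbp1* fl/fl replicate 1, 18 in chow-fed *Xbp1* LKO replicate 2 and 21 in HFS-fed *Xbp1* fl/fl replicate 2, but 11 in HFS-fed *Xbp1* LKO replicate 3, where 33.7%, 51.5%, 35.3% and 36.9% of all genes tested peaked. *Orm2*, a paralog of *Orm1*, was at 286, 58.6 and 7.22 CPM, then 9.17 and 260 CPM on chow, and at 6.91, 522 and 14.7 CPM, then 14.2, 28.7 and 219 CPM on HFS. *Lcn2*, which encodes the iron siderophore-binding lipocalin 2, was at 205, 15.8 and 1.54 CPM, then 3.71 and 243 CPM on chow, and at 3.24, 515 and 4.85 CPM, then 10.1, 11.6 and 145.5 CPM on HFS. *Saa3*, the serum amyloid A gene known from macrophages as well as liver, reached 294.5 CPM in chow-fed *Xbp1* LKO replicate 2 and was between 3.62 and 72.5 CPM elsewhere. *Serpina3n*, a protease inhibitor, ran from 364 to 1494 CPM, highest in HFS-fed *Xbp1* fl/fl replicate 2 but lowest of its group in HFS-fed *Xbp1* LKO replicate 3 (483 CPM), and *Orm3* from 1.34 to 49.1 CPM. *Crp*, which is not a major acute phase gene in mice, stayed between 386.5 and 605 CPM.

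The inducing cytokines were near the limit of detection in the same RNA. *Il6*, *Osm* and *Il22* had 0 counts in every library, and the 8 cytokine genes together made up between 0.204 and 1.57 CPM. *Socs3*, the feedback inhibitor of STAT3 signaling, was at 20.9, 9.19 and 12.9 CPM, then 27.6 and 67.2 CPM on chow, and at 11, 37.6 and 8.18 CPM, then 47.8, 16.6 and 20.4 CPM on HFS. Its peak fell in the library highest for *Saa1* in 3 of 4 groups, the exception being HFS-fed *Xbp1* LKO, where replicate 1 was highest. Neutrophil markers were also highest in those 4 libraries within their groups, at 0.497, 1.79, 2.54 and 4.91 CPM in sum, and macrophage markers in 3 of them, at 87.9, 35.0 and 96.4 CPM. HFS-fed *Xbp1* fl/fl replicate 2, at 43.7 CPM, was not the highest of its group for macrophage markers. Endothelial markers were highest of their group in chow-fed *Xbp1* fl/fl replicate 1 (103.7 CPM). They were lowest of their group in the others of the 4 libraries, at 26.4, 83.1 and 64.9 CPM in the same order. The part of these cells in the acute phase values was not tested. *Alb* was lowest of its group in the first 3 of the 4 libraries, at 86730, 14020 and 64340 CPM, and at 38970 CPM in HFS-fed *Xbp1* LKO replicate 3 it lay between the others of that group.

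Genotypes were compared on each diet to ask how loss of XBP1 in hepatocytes changes their transcripts. The fibrinogen genes had lower mean values in *Xbp1* LKO hepatocytes on both diets, but by edgeR's test none passed the threshold of 0.05 after adjustment over all 13303 genes. On chow *Fga*, which encodes the Aα chain, was at 11810, 5111 and 5917 CPM in *Xbp1* fl/fl and at 3198 and 3967 CPM in *Xbp1* LKO hepatocytes. On HFS it was at 5658, 9943 and 4940 CPM and at 3108, 2406 and 2899 CPM. In TMM-scaled CPM, every *Xbp1* LKO library lay below every *Xbp1* fl/fl library, within and across the diets. The TMM factors themselves ran from 0.878 to 0.938 in *Xbp1* fl/fl and from 1.049 to 1.193 in *Xbp1* LKO libraries. As a share of all counts, the fibrinogen genes together overlapped on chow, at 1.375% in *Xbp1* LKO replicate 2 and 1.135% in *Xbp1* fl/fl replicate 2. On HFS these shares ran from 0.804% to 0.994% in *Xbp1* LKO and from 1.146% to 2.474% in *Xbp1* fl/fl hepatocytes. The log2 fold change of *Fga* was -1.09 (SE 0.38, 95% interval -1.92 to -0.25, adjusted p = 0.140) on chow and -1.29 (SE 0.33, 95% interval -2.02 to -0.55, adjusted p = 0.055) on HFS.

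*Fgg*, which encodes the γ chain, showed the same arrangement. On chow it was at 6744, 3298 and 4178 CPM in *Xbp1* fl/fl and 2043 and 2660 CPM in *Xbp1* LKO hepatocytes, and on HFS at 3745, 6896 and 3320 CPM and 2140, 1672 and 2276 CPM. In TMM-scaled CPM its genotype groups did not overlap on either diet or across them. The log2 fold changes by edgeR's test were -1.01 (SE 0.36, adjusted p = 0.145) on chow and -1.20 (SE 0.32, adjusted p = 0.059) on HFS. *Fgb*, which encodes the Bβ chain, was closer between the genotypes. It was at 9726, 4523 and 5182 CPM and 3579 and 4907 CPM on chow, where the groups overlapped, and at 4896, 10240 and 4414 CPM and 3357, 3066 and 3680 CPM on HFS, where they did not. Its log2 fold changes were -0.61 (SE 0.39, adjusted p = 0.440) and -0.95 (SE 0.35, adjusted p = 0.174).

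DESeq2 gave the fibrinogen genes nearly the same fold changes with smaller p-values. Its adjusted p was 0.025 for *Fga* and 0.031 for *Fgg* on chow, and 0.0012, 0.0017 and 0.045 for *Fga*, *Fgg* and *Fgb* on HFS. Over all alternatives the adjusted p of *Fga* ran from 3.3e-04 to 0.392 on chow and from 1.4e-07 to 0.2125 on HFS. The sizes leaned on the library with the highest values in each *Xbp1* fl/fl group. Without chow-fed *Xbp1* fl/fl replicate 1 the chow values were -0.62 for *Fga* and -0.67 for *Fgg*, and without HFS-fed *Xbp1* fl/fl replicate 2 the HFS values were -0.92 and -0.80. Without the same libraries *Fgb* was at -0.19 on chow and -0.47 on HFS. Leaving out chow-fed *Xbp1* fl/fl replicate 1 also brought the HFS comparison of *Fga* and *Fgg* past the threshold, with adjusted p = 0.022 and 0.039 by edgeR's test.

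The 3 chains did not keep a fixed proportion between the genotypes. The count ratio *Fgb*/*Fga* was 0.823, 0.885 and 0.876 in chow-fed *Xbp1* fl/fl and 1.12 and 1.24 in chow-fed *Xbp1* LKO hepatocytes, and 0.865, 1.03 and 0.894 against 1.08, 1.27 and 1.27 on HFS. *Fgb*/*Fgg* was 1.44, 1.37 and 1.24 against 1.75 and 1.84 on chow, and 1.31, 1.48 and 1.33 against 1.57, 1.83 and 1.62 on HFS. Both ratios were higher in all 5 *Xbp1* LKO libraries than in any of the 6 *Xbp1* fl/fl libraries, by 1.33-fold and 1.27-fold on average. Of single genes tested, 7.53% were separated in this way across both diets, in either direction. The share among ratios of other genes was not tested. *Fgg*/*Fga*, from 0.571 to 0.706 in *Xbp1* fl/fl and 0.639 to 0.785 in *Xbp1* LKO hepatocytes, overlapped. In a two-sided exact permutation of genotype within diet, with 200 arrangements, p was 0.005 for *Fgb*/*Fga* and for *Fgb*/*Fgg*, the smallest these arrangements can give, and 0.335 for *Fgg*/*Fga* (0.0075, 0.0075 and 0.335 after Benjamini-Hochberg adjustment over the 3 ratios). The ratios were chosen after the values had been seen, and full separation by genotype gives the smallest p by itself. These p-values therefore describe the data, are no separate test and may not hold in other mice. A ratio of 2 genes in 1 library does not depend on the scaling. Without any 1 library the average for *Fgb*/*Fga* was between 1.30-fold and 1.37-fold and for *Fgb*/*Fgg* between 1.24-fold and 1.30-fold.

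**Figure D2:**
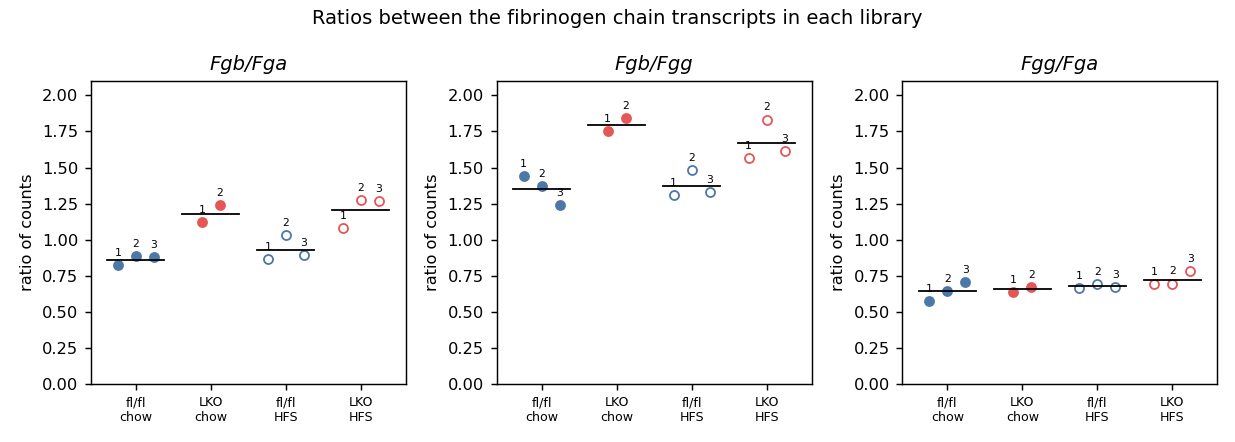
Ratio of counts between fibrinogen chain genes (vertical axis from 0, no unit) in each of the 11 libraries by genotype and diet, with digits for the replicate and bars for the group mean. *Fgb*/*Fga* is 0.823 to 1.03 in *Xbp1* fl/fl and 1.08 to 1.27 in *Xbp1* LKO libraries, *Fgb*/*Fgg* is 1.24 to 1.48 and 1.57 to 1.84, and *Fgg*/*Fga* overlaps between the genotypes.

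*Saa1* and *Saa2* could not be placed higher or lower in either genotype. Their log2 fold changes on chow were 0.11 (95% interval -4.51 to 4.73) and 0.05 (-5.21 to 5.32), and on HFS -1.04 (-5.23 to 3.14) and -1.50 (-6.31 to 3.32). A single library set the sign. Without chow-fed *Xbp1* LKO replicate 2 the chow value of *Saa1* was -4.83, and without chow-fed *Xbp1* fl/fl replicate 1 it was 2.23. Its HFS value was 3.89 without HFS-fed *Xbp1* fl/fl replicate 2 and -3.72 without HFS-fed *Xbp1* LKO replicate 3. *Saa4* stayed between 456 and 1163 CPM in all libraries and had log2 fold changes of 0.04 (SE 0.37) on chow, which turned to -0.30 without chow-fed *Xbp1* LKO replicate 2, and -0.33 (SE 0.33) on HFS.

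*Orm1* had the largest negative value on chow. It was at 1523, 857 and 596 CPM in *Xbp1* fl/fl and 187 and 629 CPM in *Xbp1* LKO hepatocytes on chow, and at 482, 1626 and 460 CPM and 241, 136 and 578 CPM on HFS. The groups overlapped on both diets, and the log2 fold changes of -1.28 (SE 0.75, adjusted p = 0.392) and -1.43 (SE 0.66, adjusted p = 0.292) did not pass. With no filter on low counts *Orm1* passed edgeR's test on both diets, in fits that called 1507 and 1438 of 26016 genes. Leaving out 1 library moved *Orm1* between -2.41 and -0.66 on chow and between -2.18 and -0.56 on HFS, without a change of sign. *Hp* ran from 2330 to 9980 CPM and *Hpx* from 2878 to 10050 CPM. The values for *Hp* were -0.68 (SE 0.55) and -0.92 (SE 0.48), and those for *Hpx* -0.54 (SE 0.53) and -0.59 (SE 0.47). The chow value of *Hp* was -0.10 without chow-fed *Xbp1* fl/fl replicate 1, and that of *Hpx* was -0.053 without chow-fed *Xbp1* LKO replicate 1. Without HFS-fed *Xbp1* fl/fl replicate 2 the HFS value of *Hp* was -0.18 and that of *Hpx* was 0.09. *Apcs*, from 37.4 to 463 CPM, was the only member with positive values on both diets, 0.85 (SE 0.94) and 0.13 (SE 0.85), which turned to -0.71 on chow without *Xbp1* LKO replicate 2 and to -0.96 on HFS without *Xbp1* LKO replicate 3.

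**Figure D3:**
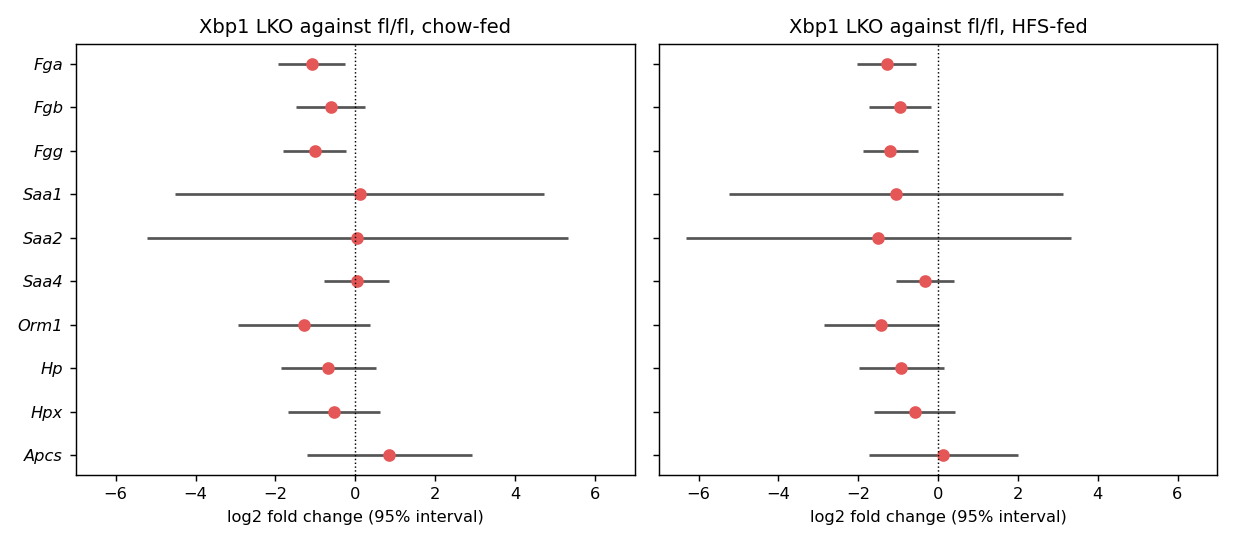
log2 fold change of *Xbp1* LKO against *Xbp1* fl/fl hepatocytes with its 95% interval (edgeR) for each gene, chow-fed on the left and HFS-fed on the right; the dotted line marks no difference. *Saa1* and *Saa2* have the widest intervals (-5.21 to 5.32 for *Saa2* on chow), and *Fga* lies at -1.09 and -1.29.

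Counted over the members, 0 of 10 passed edgeR's adjusted threshold in either genotype comparison, against 4.75% of all genes tested on chow (632 genes) and 4.08% on HFS (543 genes). At an unadjusted p under 0.05 there were 2 members on chow, *Fga* and *Fgg*, against 19.3% of all genes, and 3 on HFS, the fibrinogen chains, against 17.5%. DESeq2 called 2 members on chow, where it called 8.5% of all genes, and 3 on HFS, where it called 7.57%. Groups that did not overlap, with *Xbp1* LKO lower, were counted in TMM-scaled CPM. There were 2 such members on chow (15.9% of all genes), 3 on HFS (12.5%) and 2 across both diets (4.34%). The median log2 fold change of the members was -0.577 on chow and -0.9985 on HFS, beside 0.0024 and 0.0083 over all genes tested. By sign, 6 of 10 were negative on chow (49.7% of all genes) and 9 of 10 on HFS (48.6%). With library totals in place of TMM the median of all genes moved to 0.33 on chow and 0.27 on HFS, the calls over all genes moved to 3000 (2685 higher and 315 lower) and 1483, and none of the 10 genes changed sign in these comparisons. Calls over all genes fell to 69 on chow without chow-fed *Xbp1* LKO replicate 2 and to 184 on HFS without HFS-fed *Xbp1* LKO replicate 2. The comparisons on the 2 diets share no library, but both come from the same fit, with a shared scaling and estimate of spread.

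No member passed the test between diets in the main analysis. In HFS-fed against chow-fed *Xbp1* fl/fl hepatocytes, 0 of 10 members passed edgeR's test, as did 0.428% of all genes (57 genes), with 0 members at an unadjusted p under 0.05 (8.95% of all genes) and 0 by DESeq2 (1.36%). The values ran from -0.44 (SE 0.86) for *Apcs* to 0.54 (SE 2.16) for *Saa2*, and those for *Fga*, *Fgb* and *Fgg* were -0.15, 0.01 and -0.03 with SEs of 0.33, 0.35 and 0.31. Each of the 10 signs turned in at least 1 alternative. In *Xbp1* LKO hepatocytes all 10 signs were negative (50.5% of all genes), from -1.15 (SE 0.94) for *Apcs* to -0.09 (SE 0.37) for *Saa4*. In the same comparison 12 of 12 macrophage (median 1.20), 8 of 8 endothelial (1.55) and 6 of 6 stellate cell genes (2.27) were positive. So were 3 of 3 neutrophil genes (1.54), while the 2 cholangiocyte genes tested went 1 each way. None of these markers passed the threshold. The groups of *Fga* and *Hp* did not overlap, with HFS lower, as for 14.4% of all genes. Here too 0 members passed edgeR's test (0.0601% of all genes, 8 genes), 0 had an unadjusted p under 0.05 (12.7%) and 0 passed DESeq2 (1.6%). With no filter on low counts *Apcs* passed, at -1.16 (adjusted p = 3.5e-04), in a fit that called 722 of 26016 genes. The *Xbp1* LKO values rest on 2 chow-fed libraries, and without replicate 2 of these the values of *Saa1*, *Saa2*, *Saa4*, *Orm1*, *Hpx* and *Apcs* became positive, at 4.19, 5.03, 0.25, 0.78, 0.39 and 0.41. The median of the members was -0.09 in *Xbp1* fl/fl and -0.36 in *Xbp1* LKO hepatocytes, beside -0.0056 and -0.0027 over all genes.

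Whether the effect of genotype differed between diets was tested as an interaction. No member passed, 0 of 10 by edgeR (0.0% of all genes), 0 at an unadjusted p under 0.05 (6.13%, 816 genes) and 0 by DESeq2 (0.218%). The interaction for the fibrinogen chains was -0.20 (SE 0.49) for *Fga*, -0.34 (SE 0.52) for *Fgb* and -0.19 (SE 0.47) for *Fgg*. The other members lay between -1.55 (SE 3.21) for *Saa2* and -0.04 (SE 0.70) for *Hpx*, all with adjusted p above 0.9 by edgeR's test. All 10 signs were negative (48.8% of all genes), and 9 of them, *Saa4* being the exception, became positive in at least 1 alternative. Of markers of other cells, 12 of 12 macrophage (median 1.17), 8 of 8 endothelial (0.83) and 6 of 6 stellate cell genes (1.86) had positive interactions. Of 3 neutrophil genes tested, 1 was positive and 2 were negative (median -1.24). None of these genes passed the threshold.

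Genes that help fibrinogen through its life were tested as a list of 13, of which 12 passed the filter. Of these 4 fell on chow and 3 on HFS in *Xbp1* LKO hepatocytes, where 3.02% and 2.16% of all genes tested fell, none rose, and the median was -0.46 on both diets. *F2*, prothrombin, the precursor of the enzyme that cleaves fibrinogen, fell on both, with log2 fold changes of -0.86 (SE 0.18, adjusted p = 0.024 by edgeR) and -0.93 (SE 0.16, adjusted p = 0.010), lower in every *Xbp1* LKO library. *Cpb2*, the carboxypeptidase that slows fibrin lysis, changed by -1.11 (SE 0.21, adjusted p = 0.014) and -0.98 (SE 0.18, adjusted p = 0.014). *F13b*, a subunit of the cross-linking factor XIII, fell on chow (-0.68, adjusted p = 0.031 by edgeR) and *Plg*, plasminogen, on HFS (-0.69, adjusted p = 0.047). Among the cargo receptors, *Surf4* fell on chow (-0.57, SE 0.14, adjusted p = 0.045 by edgeR) and narrowly missed on HFS (-0.50, adjusted p = 0.052), *Lman1* narrowly missed on both (-0.48, adjusted p = 0.054, and -0.43, adjusted p = 0.055), and *Mcfd2* was at -0.06 and 0.10.

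These calls did not hold in all 19 alternatives. For *F2* the adjusted p by edgeR or DESeq2 reached 0.206 on chow, without chow-fed *Xbp1* LKO replicate 2 (log2 fold change -0.75), and 0.059 on HFS, without HFS-fed *Xbp1* LKO replicate 2 (-0.83). *F2* missed the threshold in 5 alternatives on chow and 1 on HFS, and *Cpb2* in 2 on chow, those without either chow-fed *Xbp1* LKO library (-1.05 and -1.17), and 1 on HFS, without *Xbp1* LKO replicate 2 (-0.84). *Surf4*, *F13b* and *Plg* missed it in 13, 7 and 9 of the alternatives, with adjusted p up to 0.217, 0.290 and 0.174. No sign changed.

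Among 24 other positive acute phase genes, 2 fell on chow and 1 on HFS in *Xbp1* LKO hepatocytes and none rose, with medians of -0.26 and -0.66. For this list and the next lists the shares of all genes that fell, 3.02% on chow and 2.16% on HFS, are the comparison. *Pzp*, a broad protease inhibitor of plasma, fell on both diets (-0.91, adjusted p = 0.016, and -0.70, adjusted p = 0.030, by edgeR), and *Il1rn*, the interleukin-1 receptor antagonist, on chow (-1.59, adjusted p = 0.036), from 3.24 to 7.74 CPM down to 1.53 and 2.26 CPM. Unlike *Saa1*, *Pzp* varied little in chow-fed *Xbp1* fl/fl hepatocytes, at 8001, 8724 and 8447 CPM. Only in HFS-fed *Xbp1* fl/fl hepatocytes was *Pzp* highest in the library with the most *Saa1*. The 12 negative acute phase genes held 1 that fell on chow, *Alb* (-2.14, SE 0.38, adjusted p = 0.011), and 2 that fell on HFS, *Apoa1* (-1.45, adjusted p = 0.016) and *Fetub* (-0.94, adjusted p = 0.031), with list medians of -0.53 and -0.35. *Alb* and *Apoa1* were also the calls among the 10 hepatocyte markers, 1 on each diet, where the median was -0.39 on chow and -0.48 on HFS. *Alb* and *Pzp* on chow missed the threshold in 2 alternatives each, with only the groups compared and without chow-fed *Xbp1* LKO replicate 2 (-1.64 and -0.79), and *Il1rn* on chow missed it in 9. On HFS *Apoa1*, *Fetub* and *Pzp* missed it in 4, 5 and 6 of the 19 alternatives, most of them with 1 library left out.

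Among the receptors and transducers of the inducing cytokines 1 of 20 tested passed on each diet, beside 4.75% and 4.08% of all genes. This was *Il1rap*, the accessory chain of the interleukin-1 receptor, which fell on chow (-0.88, adjusted p = 0.022 by edgeR) and on HFS (-0.72, adjusted p = 0.031), and the list medians were 0.07 and -0.03. It missed the threshold in 3 alternatives on chow and 6 on HFS, with adjusted p up to 0.235 and 0.145. *Il6ra*, the interleukin-6 receptor, lay between 48.5 and 121.7 CPM, its partner *Il6st* between 142 and 227 CPM and *Stat3* between 104 and 238 CPM. Of 16 transcription factors of acute phase genes only *Xbp1* itself passed, with medians of 0.06 on chow and -0.15 on HFS. *Cebpb* lay between 34.2 and 87.7 CPM, *Creb3l3*, an endoplasmic reticulum-bound factor, between 431 and 587 CPM and *Hnf4a* between 693 and 905 CPM. Among 8 tested genes for clearance of these plasma proteins, none passed on chow, and on HFS *Lrp1*, which takes up heme bound to hemopexin (-1.21, adjusted p = 0.014 by edgeR), and *Scarb1*, a receptor for high density lipoprotein (-0.80, adjusted p = 0.044), fell. *Lrp1* missed the threshold in 3 of 19 alternatives and *Scarb1* in 8. The list medians were -0.12 and -0.09.

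Few markers of other cells and of cell isolation passed the test, though several lists leaned to 1 side. The macrophage list (12 tested) had 0 calls, with 12 of 12 signs negative on chow (median -0.47) and 11 of 12 positive on HFS (0.60). The endothelial list had 0 calls with 8 of 8 negative on both diets (-1.34 and -0.42), and the stellate list 0 calls with 6 of 6 negative on chow (-1.24) and 6 of 6 positive on HFS (0.62). The neutrophil list had 0 calls with 3 of 3 positive on both (2.03 and 1.54). Of 2 cholangiocyte genes tested, *Sox9* fell on chow (-1.54, adjusted p = 0.017 by edgeR, missed in 3 of 19 alternatives), with list medians of -1.01 and 0.29. The only inducing cytokine past the filter on counts did not pass on either diet (-0.87 and -0.55). Among 10 immediate early genes that rise when cells are isolated, *Atf3*, also a stress factor, rose on chow (4.80, SE 0.72, adjusted p = 0.0052 by edgeR) and on HFS (3.09, SE 0.69, adjusted p = 0.030). On chow *Atf3* was at 6.53 and 43.0 CPM in *Xbp1* LKO and between 0.497 and 1.21 CPM in *Xbp1* fl/fl libraries. Over the alternatives its chow value ran from 2.87 to 5.6. Without single HFS-fed libraries the HFS call of *Atf3* was lost in 5 alternatives. Of the 10 genes of this list, 5 were negative on chow and 9 on HFS. The list's sum was between 448 and 844 CPM, with medians of -0.03 and -0.40, and none of the 14 lists had a call between diets in either genotype.

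Across the 11 libraries the members fell into different company. For each, the gene outside the 10 with the closest log2 CPM was sought among 7496 genes with a mean of at least 10 CPM, as a description. *Saa1* and *Saa2* were closest to *Orm2* (Pearson r = 0.996 and 0.994 over 11 libraries, and 0.995 and 0.990 without the 2 libraries farthest from the median). *Fga* and *Fgg* were both closest to *Wfdc21*, a small secreted protein gene (r = 0.957 and 0.956), *Orm1* to *Itih4* (0.927) and *Hpx* to *Itih3* (0.942), both inter-alpha-trypsin inhibitor heavy chains, and *Apcs* to *Crb3* (0.974). *Fgb* (with *Mif4gd*, 0.928), *Saa4* (with *Pkig*, 0.902) and *Hp* (with *Dnajc12*, 0.938) had matches that weakened to 0.813, 0.7455 and 0.714 without the 2 farthest libraries. Among the members, *Saa1* with *Saa2* (r = 0.999) and *Fga* with *Fgg* (0.990) were the closest pairs, and *Fga* with *Apcs* (0.326) was the most distant. All of these values share the same libraries and the same peaks.

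The fibrinogen genes are neighbours on chromosome 3 of GRCm38, *Fgg* at chr3:83007724-83015049 and *Fga* at chr3:83026076-83033627 on the plus strand and *Fgb* at chr3:83040141-83049863 on the minus strand. Other members lie together on chromosome 7, *Saa4* at chr7:46727998-46732603 and *Saa1* at chr7:46740497-46742980 on the minus strand and *Saa2* at chr7:46751790-46754313 on the plus strand. Near-identical copies limit what single counts can show. Of the windows of 50 bases, the read length, in the transcripts of *Saa1*, 31.5% also occurred in another gene, nearly all in *Saa2*, and 30.0% of those of *Saa2* occurred in *Saa1*. For *Orm1* it was 20.4%, shared with *Orm2* and *Orm3*, for *Saa4* 0.979%, and for *Fga*, *Fgb*, *Fgg*, *Hp*, *Hpx* and *Apcs* 0.0%. The single values of *Saa1*, *Saa2* and *Orm1* are uncertain to that extent, because the sources differ on how the reads were counted. With copies summed before the fit, *Saa1* plus *Saa2* gave 0.08 (SE 2.21) on chow and -1.23 (SE 2.01) on HFS, and *Orm1* plus *Orm2* plus *Orm3* -1.01 (SE 0.88) and -1.36 (SE 0.77). The ratio *Saa2*/*Saa1* itself varied from 0.284 to 0.807 and was highest of each group in the library with the most *Saa1*, and *Orm2*/*Orm1* varied from 0.0121 to 0.413.

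Promoters from RefSeq (GRCm38.p6) were found for 8 of the 10 genes, all but *Orm1* and *Hp*, and searched over the 250 bases before the start on both strands for 5 motifs. These were TTCNNNGAA, read by STAT factors (in 7.02% of all 32851 promoters), CTGGGAA, an interleukin-6 response element (9.1%), TTGCNNAA, the core read by C/EBP factors (9.56%), GACGTG, the core of the unfolded protein response element (5.2%), and TGACGTCA, the cyclic AMP response element (1.55%). Because *Saa1* and *Saa2* moved together most closely, and the fibrinogen genes moved together with *Fgb* apart in proportion, their promoters are printed here as far as they lie outside the annotated gene, with matches in capitals. *Saa1* (chr7:46742981-46743230, minus strand) and *Saa2* (chr7:46751583-46751789, plus strand) were 94.8% identical over the 250 bases, and each held 1 C/EBP match. *Fga* (chr3:83025903-83026075, plus strand) held a STAT and a C/EBP match, *Fgb* (chr3:83049864-83050113, minus strand) a STAT, an interleukin-6 and a C/EBP match, and *Fgg* (chr3:83007474-83007723, plus strand) an interleukin-6 match. Pairs of fibrinogen promoters were 45.8% to 46.7% identical in a global alignment.
Saa1: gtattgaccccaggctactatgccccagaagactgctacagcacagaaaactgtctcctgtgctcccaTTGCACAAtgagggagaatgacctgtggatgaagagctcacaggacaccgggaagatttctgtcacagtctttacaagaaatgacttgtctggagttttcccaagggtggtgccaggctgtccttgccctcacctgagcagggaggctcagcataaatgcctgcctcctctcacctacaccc
Saa2: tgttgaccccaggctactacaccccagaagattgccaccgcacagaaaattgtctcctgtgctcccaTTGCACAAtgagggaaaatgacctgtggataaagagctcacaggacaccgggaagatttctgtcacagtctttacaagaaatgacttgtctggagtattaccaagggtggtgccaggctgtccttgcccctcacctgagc
Fga: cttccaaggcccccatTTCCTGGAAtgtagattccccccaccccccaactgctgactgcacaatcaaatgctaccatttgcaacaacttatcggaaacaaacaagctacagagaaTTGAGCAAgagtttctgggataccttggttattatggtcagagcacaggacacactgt
Fgb: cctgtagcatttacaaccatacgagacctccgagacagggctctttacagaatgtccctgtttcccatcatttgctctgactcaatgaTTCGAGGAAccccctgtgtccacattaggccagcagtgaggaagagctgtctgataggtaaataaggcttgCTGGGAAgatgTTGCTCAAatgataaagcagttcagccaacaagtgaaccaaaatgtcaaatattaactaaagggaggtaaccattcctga
Fgg: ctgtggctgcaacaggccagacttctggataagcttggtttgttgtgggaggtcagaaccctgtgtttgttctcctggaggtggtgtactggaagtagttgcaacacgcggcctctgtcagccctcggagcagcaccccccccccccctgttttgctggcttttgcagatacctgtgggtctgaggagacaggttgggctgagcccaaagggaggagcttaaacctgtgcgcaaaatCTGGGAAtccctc

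*Apcs* held a STAT match and 2 interleukin-6 matches, *Saa4* held 2 C/EBP matches and *Hpx* 1. None of the 8 promoters held GACGTG or TGACGTCA in this window. A match is a description of the letters and not of binding.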

How the data were processed

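Per the labels, total RNA of isolated hepatocytes was sequenced. The authors deposited whole-number counts per Ensembl gene, 1 file per library, with 0 rows that name no gene. The submitters' processing notes list cutadapt 1.13, STAR, HTSeq 0.6.1p1, DESeq2 and the build mm10, whereas the study's methods describe kallisto with tximport and an mRNA kit where the labels give a total RNA kit. The study's methods call the libraries stranded. Whether counting used the strand is not given in the sources used here, so overlapping antisense genes cannot be told apart. Of 54232 identifiers, 54165 were named with GENCODE M21.

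Counts were tested with edgeR 4.0.16 in R 4.3.3 (quasi-likelihood F test, TMM, filterByExpr with a minimum count of 10, 1 factor of 4 groups over all 11 libraries, Benjamini-Hochberg adjustment over 13303 genes, threshold 0.05). CPM are TMM-scaled, and log2 CPM used a prior count of 2. Lengths were unions of exons. Alternatives were DESeq2 1.42.0, RLE factors, library totals, no filter, a minimum count of 50, only the groups compared, the replicate number as a block, summed copies, longest transcripts, shares without *Alb*, and each library left out. Leaving out a chow-fed *Xbp1* LKO library leaves 1, assumed to vary like the other groups. The ratios between fibrinogen genes, with libraries left out, were added after seeing the data.

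The members and lists were chosen with earlier results of these data known. Named from the lists were the genes *Xbp1*, *Alb*, *Crp*, *Saa3*, *Orm2*, *Orm3*, *Lcn2*, *Serpina3n*, *Il6ra*, *Il6st*, *Stat3*, *Socs3*, *Cebpb*, *Creb3l3*, *Hnf4a*, *Lman1*, *Mcfd2* and *Surf4*, and per list up to 4 others past the threshold with the smallest p in a genotype or diet comparison. 1 further gene of the rule is not reported.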

Additional observations from a re-analysis of the deposited data

How the results depend on the processing

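Of the 10 genes, 0 passed edgeR's test in all 5 comparisons of the main analysis. With no filter on low counts 4 passed on chow (*Fga*, *Fgg*, *Orm1* and *Apcs*), 6 on HFS (*Fga*, *Fgb*, *Fgg*, *Saa2*, *Orm1* and *Hp*) and 1 in HFS against chow of *Xbp1* LKO (*Apcs*), in fits that called 1507, 1438 and 722 of 26016 genes. DESeq2 called 2 on chow and 3 on HFS. A fit of only the groups compared called *Fga* and *Fgg* on HFS, among 809 of 12480 genes, as did the fit without chow-fed *Xbp1* fl/fl replicate 1, among 527 of 13228, and the count over all fits with 1 library left out was 0 to 2. RLE factors, library totals, a minimum count of 50, summed copies and the replicate block left the counts at 0. The cause was not tested.

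Each gene has 1 value per alternative fit. Over all genes and fits, signs turned in 13 of 189 values on chow, 8 of 189 on HFS, 22 of 189 for diet in *Xbp1* fl/fl, 9 of 189 for diet in *Xbp1* LKO and 31 of 179 for the interaction. These are log2 fold changes with each library left out in turn, for genes whose sign turned. For *Xbp1* LKO against *Xbp1* fl/fl on chow, the lowest and highest values were -4.83 to 2.23 for *Saa1*, -5.99 to 2.85 for *Saa2*, -0.30 to 0.53 for *Saa4* and -0.71 to 1.58 for *Apcs*. For *Xbp1* LKO against *Xbp1* fl/fl on HFS, the lowest and highest values were -3.72 to 3.89 for *Saa1*, -4.76 to 4.77 for *Saa2*, -0.87 to 0.092 for *Hpx* and -0.96 to 1.56 for *Apcs*. For HFS against chow in *Xbp1* fl/fl, the lowest and highest values were -0.52 to 0.31 for *Fga*, -0.48 to 0.43 for *Fgb*, -0.42 to 0.32 for *Fgg*, -4.53 to 2.52 for *Saa1*, -5.73 to 3.33 for *Saa2*, -0.015 to 0.77 for *Saa4*, -1.07 to 0.24 for *Orm1*, -1.08 to 0.24 for *Hp*, -1.001 to 0.024 for *Hpx* and -1.86 to 0.17 for *Apcs*. For HFS against chow in *Xbp1* LKO, the lowest and highest values were -3.43 to 4.19 for *Saa1*, -4.28 to 5.03 for *Saa2*, -0.37 to 0.25 for *Saa4*, -1.11 to 0.78 for *Orm1*, -0.86 to 0.39 for *Hpx* and -2.25 to 0.41 for *Apcs*. For the interaction, the lowest and highest values were -0.67 to 0.17 for *Fga*, -0.76 to 0.14 for *Fgb*, -0.53 to 0.21 for *Fgg*, -3.83 to 3.78 for *Saa1*, -4.82 to 4.72 for *Saa2*, -0.90 to 0.98 for *Orm1*, -0.82 to 0.50 for *Hp*, -0.54 to 0.71 for *Hpx* and -1.81 to 0.84 for *Apcs*.

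With the replicate number as a replicate block, the signs that turned were, in *Xbp1* LKO against *Xbp1* fl/fl on chow -3.40 for *Saa1*, -4.63 for *Saa2* and -0.032 for *Saa4*; in *Xbp1* LKO against *Xbp1* fl/fl on HFS 1.58 for *Saa1* and 2.102 for *Saa2*; in HFS against chow in *Xbp1* fl/fl -0.031 for *Fgb*, -3.13 for *Saa1* and -4.22 for *Saa2*; in HFS against chow in *Xbp1* LKO 1.85 for *Saa1* and 2.52 for *Saa2*; in the interaction 4.98 for *Saa1*, 6.73 for *Saa2*, 0.29 for *Orm1*, 0.10 for *Hp*, 0.34 for *Hpx* and 0.11 for *Apcs*. The numbers are those of the sample titles, and the mean correlation of same-numbered libraries was -0.0086 over 15 pairs. The second chow-fed *Xbp1* LKO library carries the number 3 elsewhere in the labels, and a block with that number was not tested.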
